A study of Rattus norvegicus with 6 samples.

Results

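The Toll-like receptor genes Tlr1 to Tlr9 and Cd14, the co-receptor that serves Tlr4 and Tlr2, were followed in 2 kinds of Schwann-lineage preparation from LEWIS rats. They were chosen by name: 10 of the 29468 gene symbols in the transcript tables, each taken as the sum of the FPKM (sequenced fragments scaled by transcript length and by the number of fragments mapped in the sample) of the transcripts carrying that symbol. Schwann cell precursors (SCPs) were prepared from sciatic nerves and brachial plexuses of embryos at embryonic day 14, with no treatment. Mature repair Schwann cells (RSCs) came from the distal stumps of sciatic nerves of wild-type rats labelled as 10 weeks old, 1 week after the nerve had been cut. Each group had 3 preparations, and the study compared them to ask how cells that differ in their support of axon growth differ in gene expression. Age, injury, source nerve and dissociation protocol all changed together between the groups, so their contributions cannot be told apart. The cells were depleted of adhesive cells such as fibroblasts and macrophages by a short seeding on uncoated plastic, and were not sorted by a marker.

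Toll-like receptors are innate immune sensors that recognise microbial products and, in injured tissue, products of damaged cells. Tlr1, Tlr2, Tlr4, Tlr5 and Tlr6 act at the cell surface together with Cd14, and Tlr3, Tlr7, Tlr8 and Tlr9 sense nucleic acids inside endosomes. Signals pass through the adaptors Myd88 or Ticam1 to NF-kappaB and interferon regulatory factors, which switch on cytokine and chemokine genes. In peripheral nerve, receptors of the family are known in Schwann cells and, more widely, in the macrophages that enter a cut nerve.

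The promoters of the 3 surface genes with the highest RSC to SCP ratios of mean FPKM are shown because these genes were high together in RSCs. They are the 250 bases before the RefSeq transcription start on the GRCr8 assembly, which is not the build of the expression tables, written 5′ to 3′ on the strand of the gene. Capitals mark the purine-rich letters GAGGAA, the core recognised by the myeloid factor PU.1 (in Tlr4 seen on the other strand, as TTCCTC), in Cd14 and Tlr4, and the NF-kappaB-like letters GGG and CC, with any 5 bases between them, in Tlr2. The windows lie at chr18:28611159-28611408 on the minus strand for Cd14, chr5:85160997-85161246 on the plus strand for Tlr4 and chr2:171504558-171504807 on the minus strand for Tlr2.
Cd14: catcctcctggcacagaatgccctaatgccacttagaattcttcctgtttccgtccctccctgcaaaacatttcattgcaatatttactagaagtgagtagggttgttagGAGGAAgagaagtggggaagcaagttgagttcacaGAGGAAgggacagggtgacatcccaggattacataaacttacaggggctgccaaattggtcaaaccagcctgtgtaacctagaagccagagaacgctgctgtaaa
Tlr4: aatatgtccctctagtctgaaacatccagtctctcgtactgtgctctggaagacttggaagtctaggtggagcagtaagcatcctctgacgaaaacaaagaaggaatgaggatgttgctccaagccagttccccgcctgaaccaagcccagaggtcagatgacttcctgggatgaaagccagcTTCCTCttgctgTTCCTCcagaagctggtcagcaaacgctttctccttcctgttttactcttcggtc
Tlr2: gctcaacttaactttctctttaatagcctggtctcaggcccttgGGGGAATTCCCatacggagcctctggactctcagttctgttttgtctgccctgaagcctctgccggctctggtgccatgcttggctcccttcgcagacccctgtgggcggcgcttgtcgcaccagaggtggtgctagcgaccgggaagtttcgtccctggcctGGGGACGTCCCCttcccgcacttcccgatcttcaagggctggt
All 10 genes had a window in the RefSeq table of 33465 promoters, and both strands were searched. The letters GAGGAA occurred in the windows of 7 of the 10 genes and in 23.3% of all windows. In Cd14 they began 105 and 140 bases before the start, and in Tlr4 at 55 and 67 bases. The Tlr2 window held 0 of them, and the Cd14 and Tlr4 windows held 0 of the NF-kappaB-like letters. The NF-kappaB-like letters, found in 42.3% of all windows, occurred in 2 of the 10, with 5 matches in Tlr2 and 1 in Tlr3. The Tlr2 matches overlapped one another within separate marked stretches. The AP-1-like letters TGANTCA, in 6.34% of all windows, were in Tlr9 alone among the 10, and the interferon-response letters GAAA and GAAA with any 2 bases between them, in 3.41% of all, were in none of these 10 windows. A match is a stretch of letters, and binding was not measured.

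Every one of the 10 genes was low in SCPs, where the highest value in any preparation was 1.39 FPKM, for Cd14. Of the 10 genes, 7 had all 3 RSC preparations above all 3 SCP preparations, against 19.6% of the 20494 symbols that were above 0 in any sample and 24.9% of those abundant enough to be tested. The other 3 genes, Tlr1, Tlr5 and Tlr8, had RSC preparations listed at 0. None of the 10 genes was lower in all RSCs than in all SCPs. The summed FPKM of the 10 genes was 1.93, 4.84 and 4.07 in SCPs 1 to 3 and 60.7, 59.6 and 58.8 in RSCs 1 to 3.

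Genes that averaged 1 FPKM or more across all 6 samples were tested with limma on log2(FPKM + 1), RSC minus SCP. The study used Cuffdiff, and defined differentially expressed genes by p under 0.01 together with a log2 fold change over 2. Here an unadjusted p under 0.01 alone counted as past the test. Of the 10 genes, 7 reached the mean of 1 FPKM and 6 of those passed, each higher in RSCs. Among all 13003 genes tested, 18.1% were higher in RSCs at that threshold and 22.4% were lower. Since all 10 genes averaged below 1 FPKM in SCPs, the 7 entered the test through their RSC level, and their count is a description. Without the filter on low values, 7 of the 10 genes passed, Tlr9 being added, where 13.4% of genes were higher in RSCs. Log2 fold changes on this scale understate the change of low genes, so ratios of mean FPKM are given beside them. Nothing in the sources says whether preparations shared animals, so p-values measure the spread between these preparations.

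**Figure D1:**
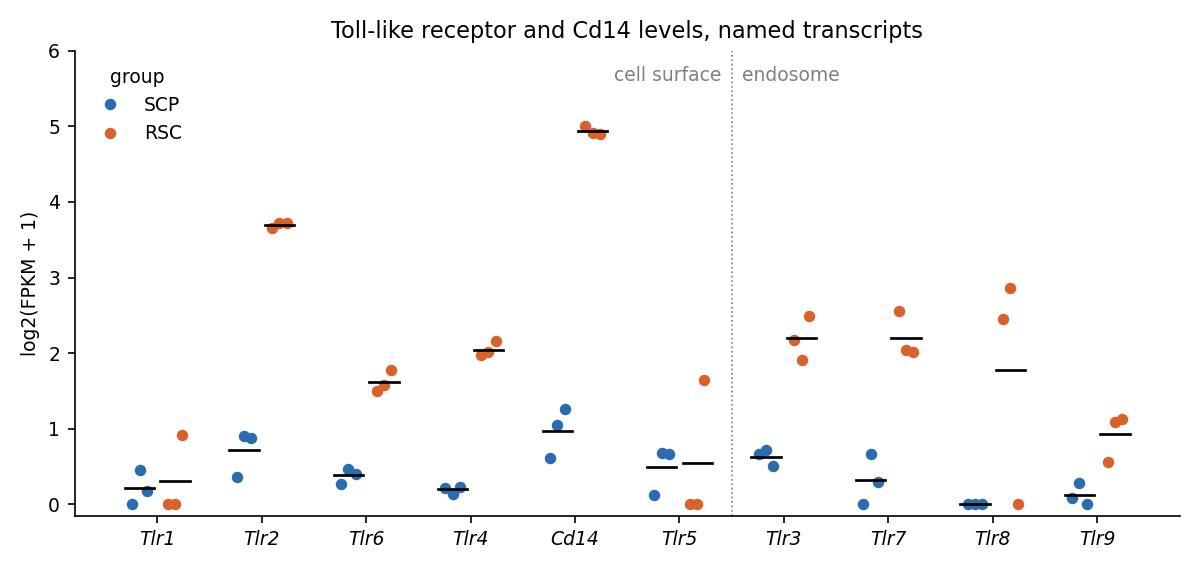
FPKM of the 10 genes from named transcripts in each preparation, on a log2(FPKM + 1) axis. Points are single preparations of SCPs and RSCs, black bars are group means on that scale, and the dotted line divides cell surface from endosomal genes. No SCP value exceeds 1.39 FPKM, whereas Cd14 lies between 28.8 and 31.0 FPKM in RSCs and Tlr8 has 1 RSC preparation at 0.

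Cd14 (chromosome 18, 29560341 to 29562294 on rn6), which binds lipopolysaccharide and hands it to the Tlr4 complex, had the highest RSC level of the 10 genes. It measured 0.526, 1.06 and 1.39 FPKM in SCPs 1 to 3 and 31.0, 29.2 and 28.8 FPKM in RSCs 1 to 3. The groups were far apart, and the RSC preparations lay close together at 29.7 ± 1.14 FPKM (SD, n = 3) against 0.992 ± 0.435 FPKM (SD, n = 3) in SCPs. The ratio of means was 29.9, and the log2 fold change was 3.97 ± 0.21 (SE, limma adjusted p = 6.3e-05). One transcript, NM_021744.1, made up 83.7% to 86.8% of Cd14 FPKM in the RSC preparations, while in SCPs its share ran from 0% to 100% at these low levels.

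Tlr4 (chromosome 5, 82587424 to 82601056), the receptor for lipopolysaccharide, rose with a much lower RSC level, 3.14 ± 0.287 FPKM (SD, n = 3). Its FPKM was 0.164, 0.102 and 0.173 in SCPs and 2.93, 3.03 and 3.47 in RSCs. It has a single transcript in the tables, and the 95% bounds that Cufflinks attached to it did not meet: the highest upper bound in SCPs was 0.325 FPKM and the lowest lower bound in RSCs was 2.07 FPKM. The ratio of means was 21.4, with a log2 fold change of 1.85 ± 0.20 (SE, limma adjusted p = 8.8e-04).

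Tlr2 (chromosome 2, 182840171 to 182846061) recognises lipopeptides as a pair with Tlr1 or Tlr6. It was at 0.287, 0.872 and 0.832 FPKM in SCPs and at 11.6, 12.2 and 12.2 FPKM in RSCs, the second highest level of the 10 genes. The ratio of means was 18.0 and the log2 fold change 2.98 ± 0.22 (SE, limma adjusted p = 1.9e-04). Cd14 and Tlr2 were the 2 of the 7 tested genes that also exceeded a log2 fold change of 2, a 4-fold difference that 7.81% of all tested genes reached in this direction and 3.78% in the other. The transcript NM_198769.2 held all Tlr2 FPKM in every preparation except RSC 3, where XM_008761102.1 took 26.7%.

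Tlr6 (chromosome 14, 45024351 to 45041188) was the lowest of the genes that passed the test. Its FPKM was 0.206, 0.386 and 0.326 in SCPs and 1.84, 1.98 and 2.43 in RSCs, with no overlap between the groups. The ratio of means was 6.80 and the log2 fold change 1.24 ± 0.22 (SE, limma adjusted p = 0.0053). Tlr1 lies 21473 bases beyond it and is a close paralog, so reads can be shared between these genes, and how Cufflinks divided such reads is not stated.

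Tlr1 (chromosome 14, 45062662 to 45065014) was listed at 0, 0.373 and 0.126 FPKM in SCPs and at 0, 0 and 0.890 FPKM in RSCs. Tlr5 (chromosome 13, 101364780 to 101385764), the flagellin receptor, was listed at 0.0933, 0.601 and 0.585 FPKM in SCPs and at 0, 0 and 2.13 FPKM in RSCs. Both genes therefore overlapped between the groups in their named transcripts, and both fell below the filter. Fitted without the filter, the log2 fold change was 0.10 for Tlr1 (limma adjusted p = 0.81) and 0.06 for Tlr5 (limma adjusted p = 0.94).

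Among the endosomal receptors, Tlr3 (chromosome 16, 50016468 to 50031011), a sensor of double-stranded RNA, was at 0.592, 0.642 and 0.420 FPKM in SCPs and at 3.53, 2.76 and 4.64 FPKM in RSCs. The groups did not overlap, the ratio of means was 6.61, and the log2 fold change was 1.56 ± 0.24 (SE, limma adjusted p = 0.0031). Its FPKM was spread over 4 named transcripts, and NM_198791.1 held 43.4% to 74.0% of it in RSCs. Taking the highest transcript in place of the sum lowered the log2 fold change to 1.08 (limma adjusted p = 0.035), and its unadjusted p then missed the threshold.

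Tlr7 (chromosome X, 28486838 to 28513004), which senses single-stranded RNA, was listed at 0, 0.591 and 0.222 FPKM in SCPs and was at 4.90, 3.10 and 3.05 FPKM in RSCs. The ratio of means was 13.6 and the log2 fold change 1.88 ± 0.29 (SE, limma adjusted p = 0.0032). Its neighbour Tlr8 (chromosome X, 28539158 to 28562803) follows after a gap of 26153 bases and belongs to the same subgroup of receptors. Tlr8 was listed at 0 in all 3 SCP preparations and at 4.47, 6.27 and 0 FPKM in RSCs. Its log2 fold change of 1.77 ± 0.76 (SE) did not pass the test (limma adjusted p = 0.107), and the zero in RSC 3 decided this: without that preparation the log2 fold change was 2.66 (limma adjusted p = 0.0024).

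Tlr9 (chromosome 8, 114916122 to 114920171), the receptor for unmethylated CpG DNA, was at 0.0563, 0.211 and 0 FPKM in SCPs and at 0.479, 1.12 and 1.19 FPKM in RSCs. Every RSC value exceeded every SCP value, but the mean stayed below the filter. Fitted without the filter, its log2 fold change was 0.81 (limma adjusted p = 0.021).

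FPKM are scaled by transcript length, so the genes can also be ranked within a group. In RSCs the order of mean FPKM ran from Cd14 and Tlr2 through Tlr7, Tlr3, Tlr8 and Tlr4, whose means of 3.68, 3.64, 3.58 and 3.14 FPKM overlapped in their ranges, to Tlr6 at 2.08 FPKM and then Tlr9, Tlr5 and Tlr1 below 1 FPKM. The ranges of Cd14, Tlr2, Tlr4 and Tlr6 each stood clear of the next gene down, and those of the other neighbours overlapped. In SCPs no neighbours in the order were separated by their ranges. This order is that of the named transcripts, and it changed once unnamed transcripts were counted.

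The zeros of the RSC preparations coincided with transcripts that Cufflinks assembled without a gene name. Across the 10 genes and 6 samples, 11 of 60 values were 0, of which 6 were in SCPs and 5 in RSCs. Unnamed transcripts overlapping a named one were added to its gene as an alternative. These transcripts filled all 5 of the zeros in RSCs and 0 of the 6 in SCPs. At 5 of the genes there were 14 such transcripts in RSC preparations and 2 in SCP preparations. In the whole tables unnamed transcripts were more numerous in SCPs (11355 to 12417) than in RSCs (8815 to 9119). Because the 10 genes were low in SCPs, these totals cannot say why the 14 and the 2 differed.

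With these transcripts added, Tlr5 was at 0.598, 0.601 and 0.585 FPKM in SCPs and at 4.28, 5.94 and 5.32 FPKM in RSCs, with a log2 fold change of 1.95 ± 0.16 (SE, limma adjusted p = 1.3e-04). In RSCs 1 and 2 the unnamed Tlr5 transcripts ran 1825 bases past the end of the named gene, and in RSC 3 they ran 203 bases past it. Tlr8 in RSC 3 went from a listed 0 to 5.83 FPKM, between its other RSC values, and the log2 fold change became 2.70 ± 0.17 (SE, limma adjusted p = 5.0e-05). That transcript extended 1207 bases past the named end of Tlr8.

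Tlr7 became 4.90, 4.24 and 5.62 FPKM in RSCs, with a log2 fold change of 2.24 ± 0.22 (SE, limma adjusted p = 2.7e-04). Tlr3 became 3.53, 4.06 and 4.64 FPKM in RSCs, and 0.908 FPKM in SCP 3. Tlr1 became 1.77, 1.56 and 0.890 FPKM in RSCs, but its added transcripts began 9058 and 10086 bases before the named gene, towards Tlr6, so which gene those bases belong to was not settled. All 10 genes then had every RSC preparation above every SCP preparation, where 27.7% of 14103 genes tested in these sums did. Of the 10, 8 were tested and 8 passed, against 21.9% of genes higher in RSCs. The order of RSC means then ran Cd14, Tlr2, Tlr8 (5.52 FPKM), Tlr5 (5.18 FPKM), Tlr7 (4.92 FPKM), Tlr3 (4.08 FPKM), Tlr4, Tlr6, Tlr1 (1.41 FPKM) and Tlr9, with overlapping ranges from Tlr8 to Tlr3. In SCPs the range of Tlr5 then stood clear of the next gene, Tlr6. With no filter as well, a setting chosen after seeing the data, 10 of 10 passed, against 16.8%.

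**Figure D2:**
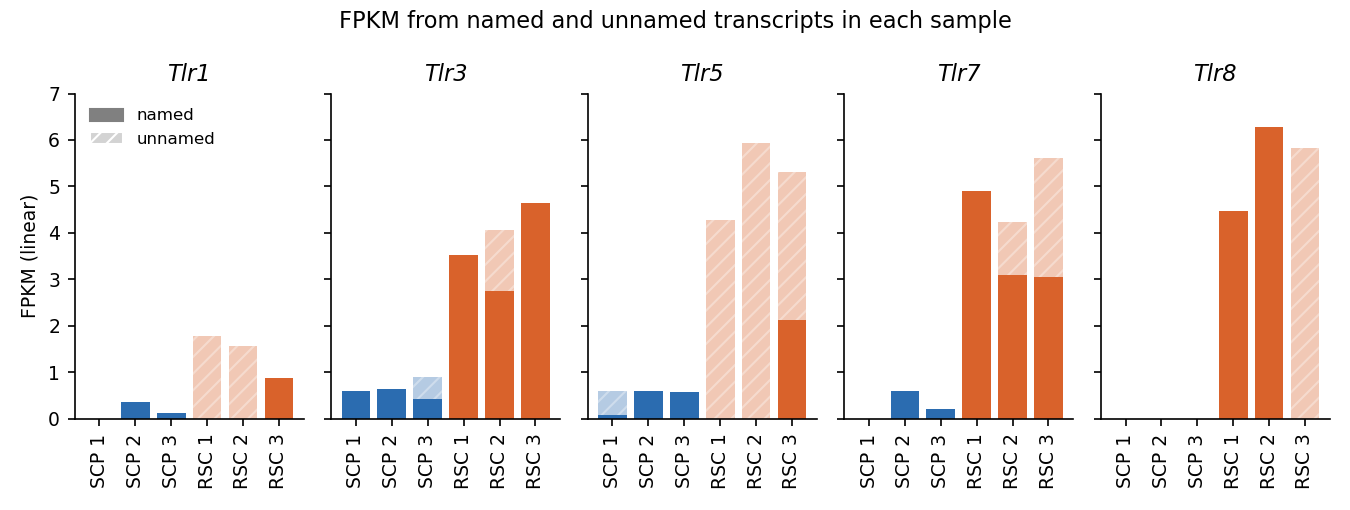
FPKM in each preparation for the 5 genes that gained unnamed transcripts, on a linear axis. Solid bars are named transcripts, hatched bars are unnamed transcripts stacked on them, blue is SCP and orange is RSC. The bars of Tlr5 in RSCs 1 and 2 and of Tlr8 in RSC 3 are made up of unnamed transcripts alone, and the 5.83 FPKM of the latter lies between the named values of RSCs 1 and 2.

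The rat tables also list Tlr10 to Tlr13. Tlr13, an endosomal receptor for bacterial ribosomal RNA, was at 0.186, 0.652 and 0.538 FPKM in SCPs and at 3.90, 3.54 and 0 FPKM in RSCs, and did not pass the test (log2 fold change 0.96 ± 0.66 SE, limma adjusted p = 0.28). Its zero was again in RSC 3, where an unnamed transcript supplied 3.34 FPKM, and with it the log2 fold change was 1.67 ± 0.18 (SE, limma adjusted p = 4.4e-04). Tlr10, Tlr11 and Tlr12 were listed at 0 in all SCPs and reached at most 0.429, 0.277 and 0.521 FPKM in RSCs, too low to be tested.

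The preparations were checked for the cell types they could hold. Sox10, which defines the Schwann lineage, was at 175 to 181 FPKM in SCPs and 143 to 149 FPKM in RSCs. Erbb3, the neuregulin receptor of Schwann cells, was listed at 0, 31.6 and 32.8 FPKM in SCPs and at 111, 0 and 95.6 FPKM in RSCs, and with unnamed transcripts at 79.8 to 102 and 208 to 269 FPKM. From named transcripts, the list of 8 Schwann markers summed to 451 to 511 FPKM in SCPs and 1873 to 2395 FPKM in RSCs. Of the 7 that were tested, 3 were higher in RSCs and 1 lower, against 18.1% and 22.4% of all genes tested. Both groups thus carried Schwann-lineage RNA, and RSCs also carried RNA of mononuclear phagocytes. Of 15 phagocyte markers in the tables, 14 passed the test and were over 4-fold higher in RSCs, against 7.81% of all tested genes. Some of them, such as Ptprc with a mean of 0.520 FPKM in SCPs, entered the test through their RSC level. The summed FPKM of the 15 was 27.6 to 73.0 in SCPs and 3137 to 3954 in RSCs.

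The defining phagocyte markers were also higher in RSCs. Ptprc, the pan-leukocyte CD45, was at 0.193, 0.758 and 0.609 FPKM in SCPs and at 10.8, 11.9 and 7.33 FPKM in RSCs. Csf1r, the receptor for macrophage colony-stimulating factor, was at 1.48, 3.83 and 3.28 FPKM in SCPs and 54.4, 83.8 and 66.3 FPKM in RSCs. Cd68 was listed at 0, 0 and 5.58 FPKM in SCPs and was at 218, 252 and 259 FPKM in RSCs, and Aif1 was at 1.13 to 6.36 and 142 to 159 FPKM. The RSC to SCP ratio of means was 14.9 to 411, with a median of 40.7, over the 14 non-overlapping phagocyte markers, and 6.61 to 29.9 over the 7 non-overlapping receptor genes. The part of these cells in the receptor values was not tested, and in bulk RNA fewer cells of a type and less RNA per cell cannot be told apart.

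Other marker lists were read beside all genes. Every RSC preparation was above every SCP preparation for 19.6% of the 20494 symbols above 0 in any sample and 24.9% of those tested. The opposite held for 4381 of the 13003 tested. Of 7 neutrophil markers, 1 had every RSC preparation above every SCP preparation, a share no higher than that of all genes. In this list 1 had the opposite and 5 overlapped. The list summed to 0.917 to 3.72 FPKM in SCPs and 5.15 to 9.10 FPKM in RSCs. The 1 that was higher was Csf3r, which also passed the test, at 0.106 to 0.385 FPKM in SCPs and 2.44 to 3.07 FPKM in RSCs. Of 11 lymphocyte and dendritic cell markers, 7 had every RSC above every SCP, 1 had the opposite and 3 overlapped, with sums of 1.06 to 2.22 FPKM in SCPs and 8.34 to 18.4 FPKM in RSCs. The T-cell marker Cd3e was listed at 0 in SCPs and at 2.93, 1.25 and 1.71 FPKM in RSCs, whereas the B-cell markers of the list were below 1 FPKM in every sample and none of them was higher in all RSCs. Fibroblast markers summed to 641 to 1020 FPKM in SCPs and 5360 to 8011 FPKM in RSCs, and erythroid markers to 16657 to 74543 FPKM in SCPs and at most 1.43 FPKM in RSCs. Endothelial markers, of which 0 of 5 passed in limma at this threshold, summed to 30.2 to 49.3 and 48.5 to 60.6 FPKM. The part of these cells in the receptor values was likewise not tested.

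The rest of the pathway was read from lists ordered by role, 88 genes in all. Of these, 74 were tested, 46 were higher in RSCs and 7 were lower, against 40.5% of all tested genes past the test in either direction. Of the 74, 24 averaged below 1 FPKM in SCPs and so entered the test through their RSC level, as did 1197 of all 13003. The median log2 fold change was 1.74 over these 74 genes and -0.17 over all genes tested, and without the filter it was 1.29 over all 88 genes and -0.07 over 20494. Scaling by median of ratios moved the median of all genes by 0.19, to 0.02, and the share of calls that were higher in RSCs from 44.6% to 56.1%, and left 46 higher and 3 lower among the pathway genes.

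Of 11 proteins that assist the receptors, 8 rose and 1 fell, against 18.1% and 22.4% of all genes tested. Of the 11, 5 averaged below 1 FPKM in SCPs and so entered the test through their RSC level. Ly96 (MD-2), which completes the Tlr4 receptor for lipopolysaccharide, was at 1.82, 3.10 and 0.640 FPKM in SCPs and 12.0, 13.1 and 15.0 FPKM in RSCs (log2 fold change 2.43 ± 0.35 SE, limma adjusted p = 0.0026). Cd14, Tlr4 and Ly96, which together receive lipopolysaccharide, thus each passed the test. Unc93b1, which carries the nucleic acid sensors to endosomes, was at 8.63, 6.56 and 7.08 FPKM in SCPs and 94.3, 119 and 104 FPKM in RSCs, a log2 fold change of 3.66 ± 0.14 (SE, limma adjusted p = 2.7e-05).

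Slc15a3, an endosomal transporter of bacterial peptides, was listed at 0 in all SCPs and was at 29.3, 36.6 and 41.0 FPKM in RSCs. The B-lymphocyte and myeloid receptor Cd180 and its partner Ly86 rose as well, by log2 fold changes of 1.82 and 2.94 (limma adjusted p = 0.0039 and 0.0016). Tril, which helps Tlr3 and Tlr4, was the accessory gene that fell, from 16.4, 16.7 and 24.8 FPKM in SCPs to 8.91, 11.4 and 10.3 FPKM in RSCs (limma adjusted p = 0.016). Its log2 fold change of -0.84 became -0.64 under median-of-ratios scaling and no longer passed (limma adjusted p = 0.057). Tril also missed the threshold under quantile normalization and with replicate number as a block (limma unadjusted p = 0.013 and 0.012). With unnamed transcripts added its log2 fold change was -1.19 and passed (limma adjusted p = 2.8e-04).

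Of 5 adaptors, Myd88, shared by all Toll-like receptors except Tlr3, was the 1 that was tested. It was at 2.24, 3.61 and 1.81 FPKM in SCPs and 29.0, 25.5 and 18.2 FPKM in RSCs, a log2 fold change of 2.83 ± 0.27 (SE, limma adjusted p = 4.7e-04). Ticam1, the adaptor of Tlr3 and of endosomal Tlr4, was listed at 0 in SCPs and at 3.02, 2.95 and 0 FPKM in RSCs. Its zero in RSC 3 became 3.12 FPKM with an unnamed transcript. With unnamed transcripts added Ticam1 was tested and passed (log2 fold change 2.01 ± 0.15 SE, limma adjusted p = 8.5e-05). Ticam2 was at 0.397 to 0.902 FPKM in SCPs and 0.872 to 2.01 FPKM in RSCs, Sarm1 at 0.503 to 0.613 and 0.215 to 1.10 FPKM, and Tirap reached at most 0.719 FPKM. With unnamed transcripts Tirap was listed at 3.75, 0 and 2.64 FPKM in SCPs and 5.21, 2.07 and 4.65 FPKM in RSCs, which overlapped and did not pass the test (limma adjusted p = 0.26).

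Of the 15 kinases and scaffolds tested, 3 rose, 3 fell and 9 did not pass, with a median log2 fold change of 0.20. These shares lay near those of all genes tested, of which 18.1% were higher in RSCs and 22.4% lower. Irak2, which relays Myd88 signals, went from 0.563, 0.644 and 1.19 FPKM to 7.30, 5.75 and 6.73 FPKM (log2 fold change 2.09 ± 0.23 SE, limma adjusted p = 8.0e-04). Pik3ap1, an adaptor to phosphoinositide 3-kinase, rose from 0.777, 1.71 and 2.53 FPKM to 9.14, 10.3 and 8.46 FPKM. Ikbke, a kinase of the interferon branch, rose by 1.17 on the log2 scale. Map3k7 (TAK1), its partner Tab1 and the NF-kappaB kinase Chuk fell by 1.02, 0.71 and 0.52 on the log2 scale, and under median-of-ratios scaling the log2 fold changes were -0.82, -0.51 and -0.31 and none of these 3 passed (limma adjusted p = 0.048, 0.030 and 0.11). With unnamed transcripts added all 3 passed in the same direction (limma adjusted p = 0.0062, 0.010 and 0.0077), and under quantile normalization Tab1 alone of the 3 passed. With replicate number as a block, Map3k7 alone of the 3 passed.

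At the nuclear end, 8 of 9 transcription factors rose and 0 fell, against 18.1% and 22.4% of all genes tested. Of the 9, 3 averaged below 1 FPKM in SCPs and so entered the test through their RSC level. Relb, an NF-kappaB subunit, was listed at 0 in all SCPs and was at 21.3, 16.2 and 16.1 FPKM in RSCs. The interferon regulatory factors Irf7 and Irf8 rose by log2 fold changes of 3.50 and 3.12 (limma adjusted p = 1.6e-04 and 1.2e-04), and none of their SCP values exceeded 1.98 FPKM. Irf8 is also a factor that macrophages need for their development.

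Of the 10 inhibitors of the pathway that were tested, 5 rose and 0 fell, against 18.1% and 22.4% of all genes tested. Of the 10, 3 averaged below 1 FPKM in SCPs and so entered the test through their RSC level. Nfkbia, which holds NF-kappaB in the cytoplasm and is itself an NF-kappaB target, was at 10.7, 15.4 and 17.4 FPKM in SCPs and 279, 226 and 243 FPKM in RSCs (log2 fold change 4.04 ± 0.19 SE, limma adjusted p = 4.6e-05). Zc3h12a, a ribonuclease that degrades cytokine mRNA, rose by 2.54, and Irak3, a brake on Irak signalling, by 2.32.

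Of the target genes, 16 of 18 tested were higher and 0 lower, against 18.1% and 22.4% of all genes tested. However, 10 of the 18 averaged below 1 FPKM in SCPs and entered the test through their RSC level. The median log2 fold change of the 18 was 2.94, and 2.86 over all 21 without the filter. The chemokine Cxcl10 was at 0.368, 0.343 and 0.970 FPKM in SCPs and 84.7, 34.7 and 36.3 FPKM in RSCs (log2 fold change 4.98 ± 0.39 SE, limma adjusted p = 2.5e-04). Cxcl1, which attracts neutrophils, was at 3.75, 6.11 and 5.44 FPKM in SCPs and 162, 143 and 177 FPKM in RSCs, a log2 fold change of 4.75 ± 0.18 (SE, limma adjusted p = 2.7e-05). The cytokine Il6 was listed at 0 in all SCPs and was at 25.8, 15.8 and 14.3 FPKM in RSCs.

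Among 9 tested endogenous molecules described as ligands of these receptors, 5 rose and 3 fell, against 18.1% and 22.4% of all genes tested. Of the 9, 1 averaged below 1 FPKM in SCPs. Dcn, a matrix proteoglycan that is also among the fibroblast markers, was at 8.60, 14.9 and 23.9 FPKM in SCPs and 1175, 2697 and 2308 FPKM in RSCs. The proteoglycan Bgn rose by 2.90, and Hspa1a, an inducible heat shock gene, rose by 3.48 from 196 to 269 FPKM in SCPs to 2578 to 2726 FPKM in RSCs. Vcan, a matrix proteoglycan, fell by 2.30 on the log2 scale, from 110, 119 and 124 FPKM to 20.6, 25.8 and 23.4 FPKM. Hspd1 fell by 0.93 and Hmgb1 by 0.68, and both passed under median-of-ratios scaling as well (limma adjusted p = 0.0039 and 0.015).

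**Figure D3:**
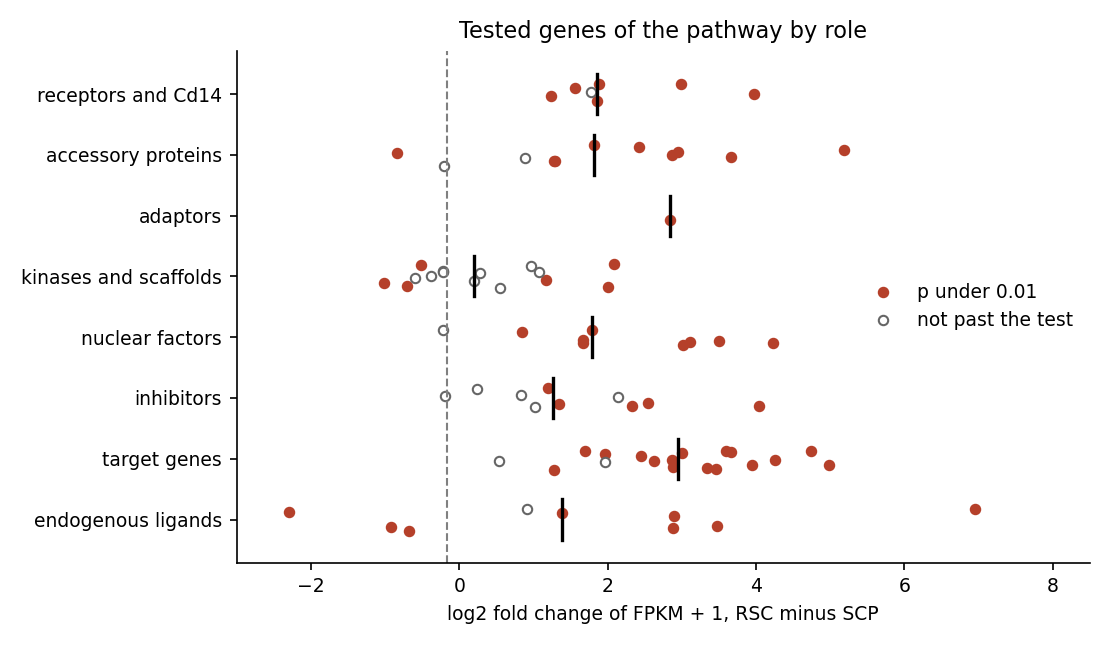
Log2 fold change of FPKM + 1, RSC minus SCP, of each tested gene by its role in the pathway. Filled points passed the test at p under 0.01, open points did not, black bars are list medians and the dashed line is the median of all genes tested, -0.17. Receptors, accessory proteins, nuclear factors and targets lie mainly to the right of 0, while the kinases and scaffolds straddle it with a median of 0.20.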

How the data were processed

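RNA of 3 SCP and 3 RSC preparations was sequenced by the authors as stranded paired-end mRNA libraries. The submitters' processing notes name FastQC 0.11.2, TopHat2 2.1.0 and Cufflinks 2.2.1, and the build was rn6. Per sample, the authors deposited a Cufflinks transcript table of FPKM, normalized for transcript length and mapped fragments, with a read coverage per transcript, used only for relative depth. No counts are in these tables, so absolute depth is unknown, no count test was run, and precision rests on 3 preparations a group. Relative depth (coverage per FPKM against the highest sample) was 0.88 to 1.00 in SCPs and 0.79 to 0.84 in RSCs, and unnamed transcripts held 26.1% to 31.9% and 18.6% to 23.4% of FPKM. Left out were 77 transcripts per table whose names a spreadsheet had turned into dates.

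FPKM were summed by symbol and positions counted from 1. The two-sided fit used limma 3.58.1 with a variance trend in R 4.3.3 on log2(FPKM + 1), with Benjamini-Hochberg adjustment over the 13003 genes averaging 1 FPKM or more, and was tested on simulated data. Tables were handled in Python 3.11.15 with pandas 2.3.3, and figures drawn with matplotlib 3.10.9. The receptor genes and all lists were chosen with earlier results of these data known. Named were all 10 genes, per other list the 3 tested genes with the largest log2 fold change among those past the test, all adaptors, Ly96, Cd180, Ly86, Unc93b1, Tlr10 to Tlr13, and the defining markers, of which some are not reported here. Tril, Tab1, Chuk, Map3k7, Hspd1, Hmgb1 and Vcan, the genes that fell, and further transcripts were named after their values were seen. Lists came from general knowledge. The alternatives were another pseudocount, filter, normalization, variance model, threshold or transcript sum, a replicate block, unnamed transcripts added, and each sample left out.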

Additional observations from a re-analysis of the deposited data

How the results depend on the processing

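The count of 6 receptor genes past the test kept its direction in every alternative run. It was 2 with a mean of at least 5 FPKM, where 2 genes were tested, 2 when a log2 fold change over 2 was also asked for, and 10 with unnamed transcripts added and no filter, a setting chosen after seeing the data. In the other alternatives it was between 4, with the highest transcript of each symbol, and 8, with unnamed transcripts added, and it was 6 whichever sample was left out. The pathway count of 53 ran from 41 to 63 over the alternatives and from 45 to 50 with a sample left out. The count over all genes, 5268, became 8726 with unnamed transcripts added and no filter and 4449 to 4835 with a sample left out. No receptor gene changed direction, while over all genes the calls were mostly lower in RSCs (44.6% higher) and became mostly higher (56.1%) under median-of-ratios scaling.

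Replicate numbers gave no clear pairing: deviations of same-numbered samples correlated at 0.044, -0.0049 and 0.026. SCP 1 and SCP 3 correlated best with the RSC of the same number and SCP 2 with RSC 1, but the highest correlation was 0.044. With the numbers as a replicate block, 6 receptor genes, 46 pathway genes and 4275 of all genes passed.

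Depth and the transcript model limit the low genes most. The SCP values of all 10 genes lie at or below 1.39 FPKM, where the absolute depth is unknown and a listed 0 can be an assignment to an unnamed transcript. Tlr1 and Tlr6 can share reads. The phagocyte RNA in RSCs was measured but its part in the receptor levels was not.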
